A study of Mus musculus with 6 samples.

Results

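Pro-death target genes of the tumour suppressor p53 were followed in mouse embryonic stem cells after knockdown of Chd8, a chromatin remodeller of the CHD family. The set holds 10 genes: Bbc3, Pmaip1, Bax, Fas, Tnfrsf10b, Eda2r, Perp, Trp53inp1, Ei24 and Aen. Its members are all probes whose platform gene symbol, old or current, is a listed gene. This gave 24 probes for 9 of the 10 genes, out of 45281 probes and 19057 genes with a probe in all. Bax, the pore-forming effector of the mitochondrial pathway, had no probe by this rule and was not analysed here. The rule used no measured value, but the set was proposed with earlier results of these data known.

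The 3 arrays called shChd8 carry RNA of embryonic stem cells electroporated with a pHYPER vector for a short hairpin RNA against Chd8. The 3 control arrays carry RNA of cells labelled only as control, and the sources used here do not say what the control vector held. All cells were grown in 15% foetal bovine serum with leukemia inhibitory factor on mouse embryonic fibroblasts inactivated with mitomycin C, a DNA crosslinker, and were selected with puromycin for 48 h from 24 h after transfection. The labels name no cell line, no second hairpin and no rescue, and they do not say that arrays of a group came from separate cultures. The p-values therefore rest on a spread among arrays that may be wholly technical. All 6 arrays lay on 1 slide, with shChd8 and control at separate positions, and an effect of position cannot be told apart from that of the hairpin.

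p53 is a transcription factor that is held low by the ubiquitin ligase Mdm2 and accumulates after DNA damage and other stress. Among its targets, the BH3-only proteins Puma (Bbc3) and Noxa (Pmaip1) free Bax and its relatives to permeabilise the outer mitochondrial membrane, while death receptors such as Fas pass signals from outside the cell to caspases. In mouse cells CHD8 has been described as a p53-binding protein that brings linker histone H1 to p53 target genes and holds their transcription down. Embryonic stem cells are known for a low threshold for apoptosis.

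The promoters are shown first, because p53 is known to act on its targets through DNA elements. RefSeq promoter windows (GRCm38.p6, 250 bases before to 50 after a transcript start) were searched for 6 of the 10 genes. These were Bbc3, Bax, Aen, Ei24, Fas and Eda2r, with 9 windows. Trp53inp1, Tnfrsf10b and Perp had no window. Pmaip1 was left out before the search, so its promoter was not examined and the counts do not cover it. The p53 response element consists of 2 copies of the p53 half-site, a palindrome of 10 bases, so that a search of either strand is the same. A match here is 20 bases without a spacer, with at most 3 mismatches and with the central C and G of each half-site intact. This definition was chosen after the Bbc3 promoter had been seen. It was met in 1.38% of all 32851 windows and in 1.63% of all genes with a window, and among the 6 genes in Bbc3 and Aen. A half-site without mismatch was found in 8.36% of all windows and in 9.55% of all genes, and among the 6 genes in Bax, Aen and Ei24. A match is a description of the letters and not a bound site. The stretches below are written 5′ to 3′ on the strand of the gene, and capitals mark the 20-base match in Bbc3 and Aen and the 10-base half-site in Ei24. The Bbc3 and Ei24 stretches are the 250 bases before a transcript start. The Aen stretch is the match with its flanks, which lies before 1 of the annotated starts of Aen and after another.
Bbc3, chr7:16309333-16309582, plus strand: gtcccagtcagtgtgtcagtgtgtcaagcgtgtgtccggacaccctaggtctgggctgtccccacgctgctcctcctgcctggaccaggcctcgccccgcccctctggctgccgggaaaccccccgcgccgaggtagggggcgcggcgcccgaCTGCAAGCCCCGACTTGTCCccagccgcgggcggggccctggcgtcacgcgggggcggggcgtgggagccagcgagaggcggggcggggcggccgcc
Aen, chr7:78895932-78895961, plus strand: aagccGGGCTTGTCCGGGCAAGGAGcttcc
Ei24, chr9:36797335-36797584, minus strand: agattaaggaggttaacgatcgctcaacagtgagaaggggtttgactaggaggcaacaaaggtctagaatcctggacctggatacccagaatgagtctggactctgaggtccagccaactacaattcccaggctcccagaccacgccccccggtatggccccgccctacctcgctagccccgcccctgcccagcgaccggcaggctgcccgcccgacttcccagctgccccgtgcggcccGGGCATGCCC
The Bbc3 match spans bases -97 to -78 from 1 annotated transcript start, and the Ei24 half-site spans bases -10 to -1 from the start shown. That Bbc3 start and the match, at chr7:16309486-16309505, lie inside the gene, which begins at base 16308398.

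Each array detected 16482 to 17440 of its 45281 probes, taking a detection p-value under 0.01 as detected. Mean non-normalized intensity was 419.5 to 497.5 on the shChd8 arrays and 389.9 to 413.1 on the control arrays. The hairpin's target was lower. Chd8 (ILMN_2703082) had a normalized log2 intensity of 8.71, 8.64 and 8.36 in shChd8 cells and of 9.90, 9.97 and 10.02 in control cells, a log2 change of -1.39 (SE 0.15, limma adjusted p = 0.00907). All 11 stem cell markers with a probe, among them Pou5f1, Nanog and Sox2, were detected on all 6 arrays. Of 11 markers of other lineages, 7 were detected on none. The 3 that were tested, Nes, Gata6 and Eomes, had log2 changes of 0.42, 0.41 and 0.23 without a call. Cdx2 was detected on 2 shChd8 arrays and on no control array. The summed normalized intensity of the 11 markers was 587.6, 509.8 and 485.3 in shChd8 cells and 473.9, 381.9 and 444.2 in control cells.

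Of the 10 genes, 3 rose in shChd8 cells, 0 fell, 5 were tested without a call, Perp was not detected and Bax was not analysed. The genes that rose were Bbc3, Trp53inp1 and Ei24, each at 1.79-fold to 2.02-fold of control. Over all 9711 genes tested by the same rule, 5.17% were called, of which 2.12% rose and 3.05% fell as shares of all tested. Testing required detection on 3 or more arrays. A call required a limma adjusted p under 0.05 on any probe of the gene, with Benjamini-Hochberg adjustment over all tested probes. On the brightest probe of each gene alone, the same 3 genes of the set rose, against 1.70% of all genes. By probe, 5 of the 17 tested probes of the set were called, all of them higher, while of all tested probes 3.68% were called and 1.55% were higher. An unadjusted p under 0.05 was reached by 4 of the 8 tested genes of the set and by 32.4% of all tested genes. The log2 change was above 0 for 7 of the 8 and for 48.6% of all tested genes. The median log2 change of the 8 tested genes was 0.82, and that of all tested genes was -0.02. In 5 of the 8, every shChd8 array lay above every control array, as in 17.1% of all tested genes. The exact two-sided permutation test of a single probe cannot go below p = 0.1 with 3 arrays against 3, and it gave this value for each of these 5 genes. Aen is among the 5 genes and among the 4 with an unadjusted p under 0.05 through a dim probe that was detected on 1 control array only, so that it passed the detection filter through the shChd8 arrays. On its probe detected on all 6 arrays Aen had a log2 change of 0.08, and the groups overlapped. These counts and the median are descriptions for that reason.

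**Figure D1:**
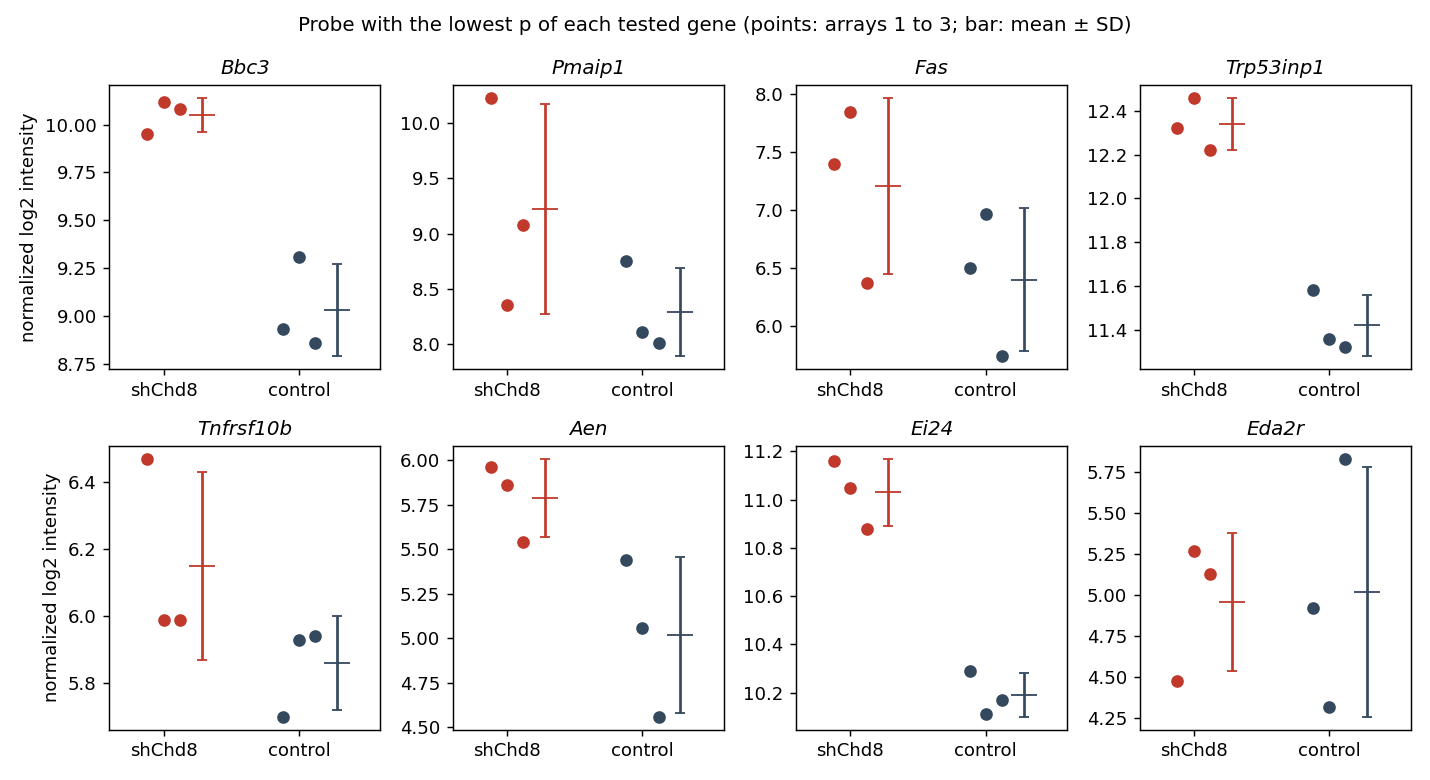
Normalized log2 intensity (y axis) of the lowest-p probe of each of the 8 tested genes in shChd8 (red) and control (dark) cells, with 1 point per array and the mean ± SD (n = 3) beside them. For Bbc3, Trp53inp1 and Ei24 the groups are wide apart, and for Pmaip1, Fas and Eda2r they overlap.

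Bbc3, which encodes the BH3-only protein Puma and lies at chr7:16308398-16318334 (GRCm38.p6), had the largest log2 change among the genes of the set that were called. Its probe ILMN_2920736 had a log2 intensity of 9.95, 10.12 and 10.08 in shChd8 cells, against 8.93, 9.31 and 8.86 in control cells. The 3 shChd8 arrays lay close together and all above the control arrays. Before normalization the same probe had intensities of 1078, 1257 and 1424 in shChd8 cells and of 548.7, 612.7 and 511 in control cells. The log2 change was 1.02 (SE 0.17, 95% interval 0.63 to 1.40, limma adjusted p = 0.0279). A second tested probe, ILMN_2690620, was dim, with 5.76, 5.45 and 5.73 in shChd8 cells and 6.00, 5.31 and 5.68 in control cells. Its groups overlapped, and its log2 change was -0.01 with a 95% interval of -0.48 to 0.45, which does not reach the change of the first probe. The third, ILMN_2690621, was detected on no shChd8 array and on 1 control array and was not tested. The rise of Bbc3 therefore rests on 1 of its 3 probes, and the call was lost when the tested probes were averaged (log2 change 0.50, adjusted p = 0.0547).

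Pmaip1, which encodes the BH3-only protein Noxa, varied more between arrays than almost any other transcript. Its probe ILMN_2670625 had 10.23, 8.35 and 9.08 in shChd8 cells and 8.75, 8.11 and 8.01 in control cells. The first shChd8 array stood well above the other shChd8 arrays, and the second lay below the first control array, so the groups overlapped. ILMN_1245289 had the same order of arrays within shChd8, with 8.36, 6.69 and 7.49, against 7.30, 6.64 and 6.32 in control cells. The log2 changes were 0.93 (SE 0.43, limma adjusted p = 0.217) and 0.76 (SE 0.41, adjusted p = 0.284), and the 95% interval of ILMN_2670625 ran from -0.05 to 1.91. Its SD among shChd8 arrays, 0.95, was higher than that of 99.8% of all tested probes. Without shChd8 replicate 1 its log2 change was 0.43, and without shChd8 replicate 2 it was 1.36. The third probe was detected on no array.

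Fas, the receptor of Fas ligand, had 2 tested probes with like values. ILMN_2902979 had 7.40, 7.85 and 6.37 in shChd8 cells and 6.50, 6.97 and 5.74 in control cells. ILMN_2479290 had 6.72, 6.59 and 5.81 in shChd8 cells and 5.80, 6.36 and 4.66 in control cells. On each probe the third array was the lowest of its group, and the groups overlapped. The log2 changes were 0.81 (SE 0.41, limma adjusted p = 0.256) and 0.77 (SE 0.42, adjusted p = 0.287), and the interval of the first ran from -0.13 to 1.75. The log2 change of ILMN_2902979 was 0.48 without control replicate 3, and 0.46 without background correction and in the deposited normalized values. The other 2 probes of Fas were not tested, since ILMN_2454420 was detected on 1 control array and ILMN_2582933 on none.

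Tnfrsf10b, the mouse receptor of the death ligand TRAIL, had 5 probes, of which 3 were tested and 0 called by limma, nor did any have an unadjusted p under 0.05. ILMN_2945095 had 7.58, 7.95 and 6.34 in shChd8 cells and 7.19, 7.76 and 7.08 in control cells, and its lowest value was an shChd8 array. Its log2 change was -0.05 (SE 0.39), with an interval of -0.94 to 0.83. ILMN_2455181 had 6.47, 5.99 and 5.99 in shChd8 cells and 5.70, 5.93 and 5.94 in control cells, a log2 change of 0.30 (SE 0.18, adjusted p = 0.343). The groups did not overlap on that probe, by a narrow margin. ILMN_2460875 had a log2 change of 0.19 with overlapping groups. An untested probe, ILMN_1230700, was detected on 2 shChd8 arrays and on no control array, at log2 values of 5.37, 5.33 and 4.61 in shChd8 cells and 4.62, 4.67 and 4.79 in control cells.

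Eda2r, a receptor of the ectodysplasin isoform A2, stayed near background. Its only probe was detected on 2 shChd8 arrays and 1 control array, with 4.48, 5.27 and 5.13 in shChd8 cells and 4.92, 4.32 and 5.83 in control cells. The highest and the lowest value were both control arrays. The log2 change was -0.06 with an interval of -0.91 to 0.78, wide enough to hold a fall of the size by which Ei24 rose.

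Perp, a tetraspan membrane protein of desmosomes that p53 induces, was detected on 0 of the 6 arrays. Its log2 values of 5.00, 4.91 and 4.66 in shChd8 cells and 4.55, 4.77 and 4.62 in control cells are at background, and no fold is given.

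Trp53inp1, a nuclear protein that promotes p53 phosphorylation and takes part in autophagy (chr4:11156441-11174379), rose on both of its probes. ILMN_2506012 had 12.32, 12.46 and 12.22 in shChd8 cells, against 11.58, 11.36 and 11.32 in control cells. ILMN_2971479 had 10.30, 10.33 and 10.16 in shChd8 cells, against 9.63, 9.48 and 9.02 in control cells. All shChd8 arrays lay above all control arrays on each probe, and the spread within groups was small beside the difference. The log2 changes were 0.92 (SE 0.15, interval 0.57 to 1.27, limma adjusted p = 0.0279) and 0.89 (SE 0.19, interval 0.46 to 1.31, adjusted p = 0.0435).

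Ei24, a membrane protein of the endoplasmic reticulum that was found as an etoposide-induced p53 target and is needed for autophagy (chr9:36779153-36797334), also rose on both of its probes. ILMN_2953677 had 11.16, 11.05 and 10.88 in shChd8 cells and 10.29, 10.11 and 10.17 in control cells. ILMN_2775512 had 11.09, 10.77 and 11.09 in shChd8 cells and 10.15, 9.99 and 10.15 in control cells. Neither probe overlapped between the groups. The log2 changes were 0.84 (SE 0.15, limma adjusted p = 0.0313) and 0.88 (SE 0.16, adjusted p = 0.0317). The SD within groups of ILMN_2953677 was lower than that of most tested probes, with 12.4% of them lower still, whereas 99.2% lay below Pmaip1 and 99% below Fas.

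Aen, an exonuclease that p53 induces and that acts in nuclear DNA breakdown, gave different results on its 3 probes. ILMN_2656453 had 5.96, 5.86 and 5.54 in shChd8 cells and 5.44, 5.06 and 4.56 in control cells. The groups did not overlap, but this dim probe was detected on all 3 shChd8 arrays and on 1 control array only. Its log2 change was 0.76 (SE 0.24, interval 0.23 to 1.30, limma adjusted p = 0.0943). The change was 0.25 without background correction and 0.26 in the deposited normalized values, and under median scaling it was 0.88 and called (adjusted p = 0.0372). ILMN_2924088, detected on all 6 arrays, had 6.10, 6.34 and 5.99 in shChd8 cells and 6.06, 6.10 and 6.01 in control cells. Its log2 change was 0.08 with an interval of -0.26 to 0.43. ILMN_2924083 had a log2 change of 0.25 and overlapping groups.

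**Figure D2:**
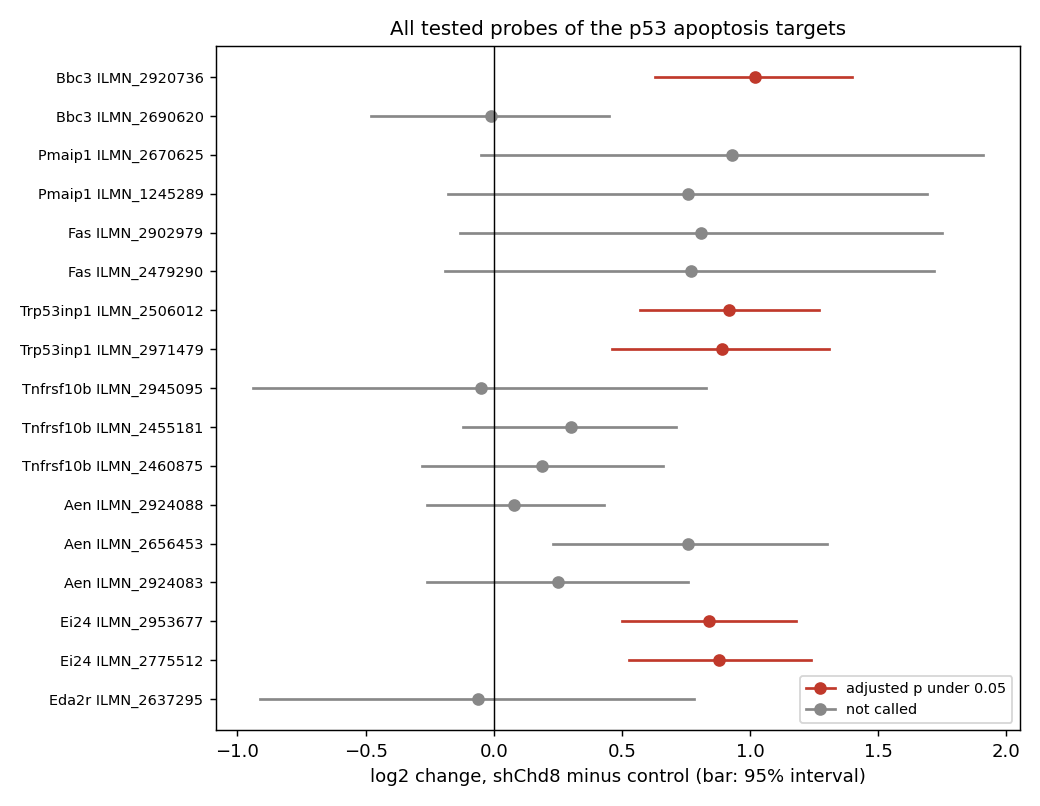
Log2 change, shChd8 minus control (x axis), of each of the 17 tested probes of the set, with its 95% interval from limma. The 5 called probes, in red, belong to Bbc3, Trp53inp1 and Ei24 and lie between 0.84 and 1.02, and the probes of Pmaip1 and Fas have changes of like size with intervals that include 0.

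The calls depended on which arrays were used. Bbc3, Trp53inp1 and Ei24 were all called without shChd8 replicate 3 and without control replicate 2. Limma called 0 genes of the set without shChd8 replicate 1, shChd8 replicate 2, control replicate 1 or control replicate 3, where 4 or 5 genes of the set had an unadjusted p under 0.05. The count of calls over all genes, 502 with 6 arrays, was between 15 and 44 in those same 4 fits. With 6 arrays 32.4% of all tested genes had an unadjusted p under 0.05, and that share is not given for the 4 fits. Over all 18 alternatives the log2 change lay between 0.50 and 1.23 for Bbc3, between 0.86 and 1.07 for Trp53inp1 and between 0.78 and 1.03 for Ei24.

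**Figure D3:**
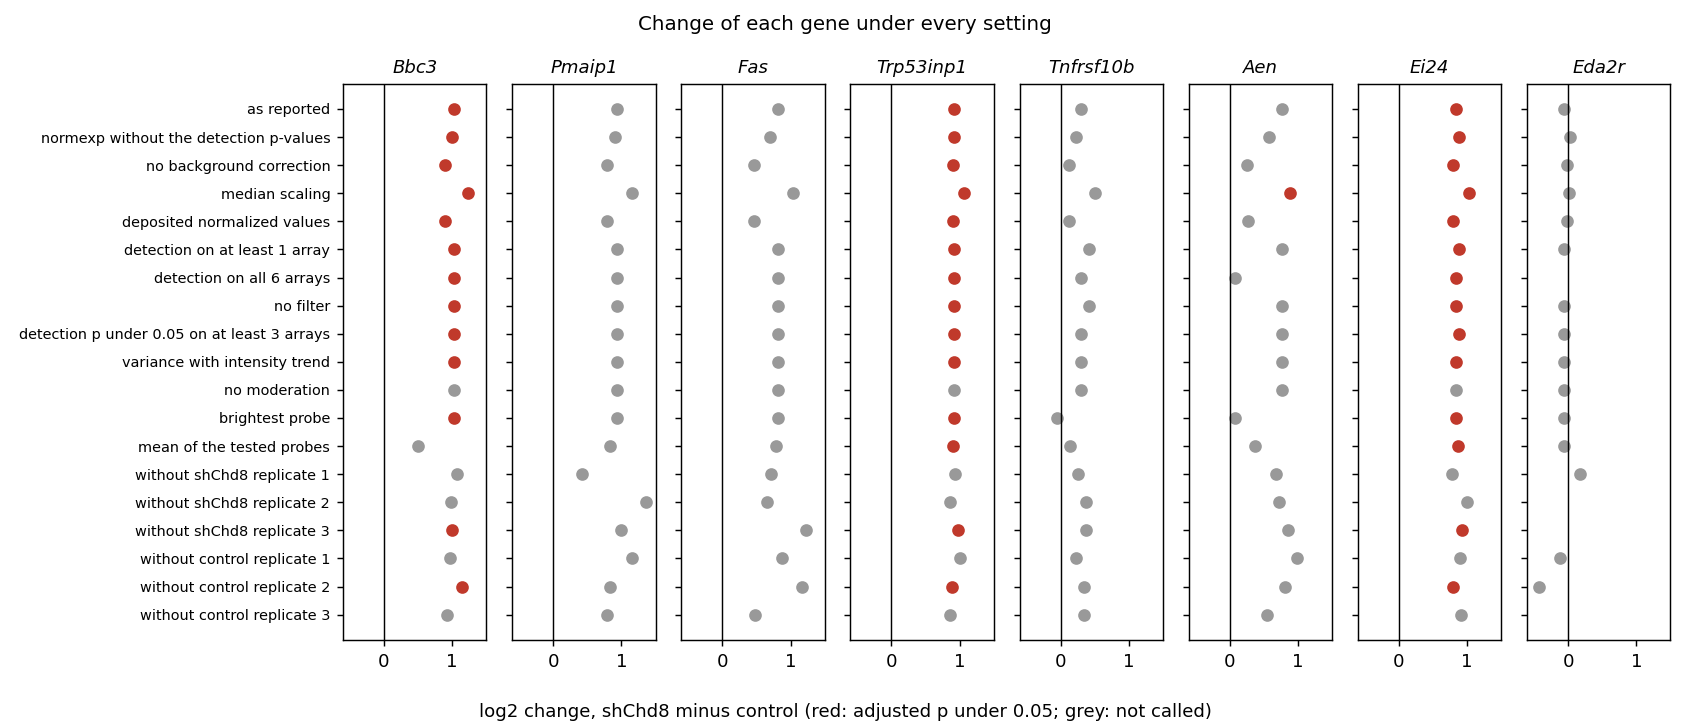
Log2 change, shChd8 minus control (x axes), of the 8 tested genes under each setting (rows), in red where the limma adjusted p was under 0.05. Trp53inp1 and Ei24 keep nearly the same change in every row, between 0.78 and 1.07, while Pmaip1 ranges from 0.43 to 1.36, and Eda2r has a point in only 14 of the 18 alternatives, those in which its probe passed the filter.

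Other p53 targets were taken from lists written with earlier results of these data known. Among 23 tested targets of cell cycle arrest, repair and feedback, 6 rose and 0 fell, with a median log2 change of 0.54. Over all tested genes 2.12% rose and 3.05% fell, with a median of -0.02. Plk2, a polo-like kinase, had 9.97, 9.83 and 9.69 in shChd8 cells and 8.58, 8.62 and 8.19 in control cells, a log2 change of 1.37 (SE 0.17, limma adjusted p = 0.0133). Mdm2 rose by 0.91 on ILMN_2850753 and had 0.78 without a call on its other tested probe. Ccng1, cyclin G1, rose by 0.92 on 1 of its 3 tested probes and had 0.40 on each of the others. Ddit4, an inhibitor of mTORC1, rose by 1.04, Dcxr, a carbonyl reductase, by 0.85 and Rprm, the arrest factor reprimo, by 0.73. Rprm had 0.34 and lost its call without background correction (adjusted p = 0.0508) and in the deposited normalized values (adjusted p = 0.0504). Gadd45a, Zmat3 and Gtse1 had log2 changes of 0.51, 0.47 and 0.41 without a call. Larger uncalled changes included those of Cdkn1a (1.38), Phlda3 (1.23) and Ccng2 (1.07), with limma adjusted p-values of 0.054, 0.0625 and 0.0838. Of the 23 tested genes 19 had a log2 change above 0 and 4 below, while 48.6% of all tested genes were above 0. The list differed between scalings in its number of calls, with 12 higher under median scaling and 10 higher without background correction. Over all 9711 tested genes, 1165 were called higher under median scaling and 625 without background correction. Under median scaling the median change of all probes was 0.18.

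The other targets tied to cell death did not show calls. Of 11 tested, limma called 0, while 5.17% of all tested genes were called. Of the 11, 3 had an unadjusted p under 0.05, all of them higher. Such a p was reached by 32.4% of all tested genes, in either direction. Apaf1, the scaffold of the apoptosome, had 10.15, 9.78 and 10.27 in shChd8 cells and a log2 change of 0.71 (SE 0.17, adjusted p = 0.0567). Bid, the BH3-only link from caspase-8 to mitochondria, and Siva1 had changes of -0.16 and -0.11. The median of this list was 0.02, and under median scaling it was 0.27, with 3 called higher, beside 1165 of all 9711 tested genes.

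Among regulators of p53, Mdm2 was the 1 gene of 13 tested that was called, while 5.17% of all tested genes were called. Ppm1d, a phosphatase that switches p53 signalling off, the kinase Atm and the acetyltransferase Ep300 had log2 changes of 0.42, 0.30 and 0.28 without a call. Cdkn2a, with 0.97 (limma adjusted p = 0.0739), and Hipk2, with 0.57, were not called either. Kat5, an acetyltransferase that modifies p53, had -0.63 (limma adjusted p = 0.051) and Trp53bp1, a DNA damage adaptor, had -0.38, also without a call. The list had 9 genes above 0 and 4 below, with a median log2 change of 0.26. At an unadjusted p under 0.05 it had 4 higher and 2 lower, beside 32.4% of all tested genes in either direction.

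The rest of the BCL2 family and the caspase machinery had 1 call per list, of 3, 9 and 15 tested genes. Over all tested genes 5.17% were called. The anti-apoptotic Bcl2l1, which encodes Bcl-xL, had 7.74, 7.75 and 7.76 in shChd8 cells and 6.80, 6.90 and 7.18 in control cells, and rose by 0.79 (SE 0.15, limma adjusted p = 0.0376) on 1 of its 3 tested probes. The other tested probes of Bcl2l1 had 0.59 and 0.42 without a call. The log2 change of Bcl2l1 was 0.51, still called, without background correction and in the deposited normalized values. Of the 3 tested anti-apoptotic members Bcl2l1 was the only call. Bcl2l2 had 0.67 (limma adjusted p = 0.104) and Mcl1 had -0.25. Bik, a BH3-only killer protein of the endoplasmic reticulum, went the other way from Bbc3. It had 5.36, 5.59 and 5.75 in shChd8 cells, against 6.79, 6.62 and 7.02 in control cells, and fell by 1.24 on the log2 scale (SE 0.17, adjusted p = 0.0178). The probe is dim, and its log2 change was -0.56 both without background correction and in the deposited normalized values, where it was still called. It was the 1 call among 9 tested pro-apoptotic relatives, of which 6 had a log2 change below 0 and 3 above, with a median of -0.16 (0.05 under median scaling). Bak1, the other pore-forming effector beside Bax, had -0.66 (adjusted p = 0.0785), Bok had -0.43, Bnip3l 0.21 and Bad 0.02, none of them called. An unadjusted p under 0.05 was reached by 3 lower and 1 higher of the 9, and by 32.4% of all tested genes in either direction. Of 15 tested caspases, apoptosome parts and inhibitors, Cycs, cytochrome c, fell by 0.69 on a dim probe (adjusted p = 0.0435) and had -0.27 and -0.45 without a call on its other tested probes. The Cycs call was lost under median scaling (-0.46, adjusted p = 0.121), where 4 other genes of this list and 1165 of all 9711 tested genes were called higher. It was also lost without background correction (-0.33, adjusted p = 0.0516) and in the deposited normalized values (-0.33, adjusted p = 0.0511).

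**Figure D4:**
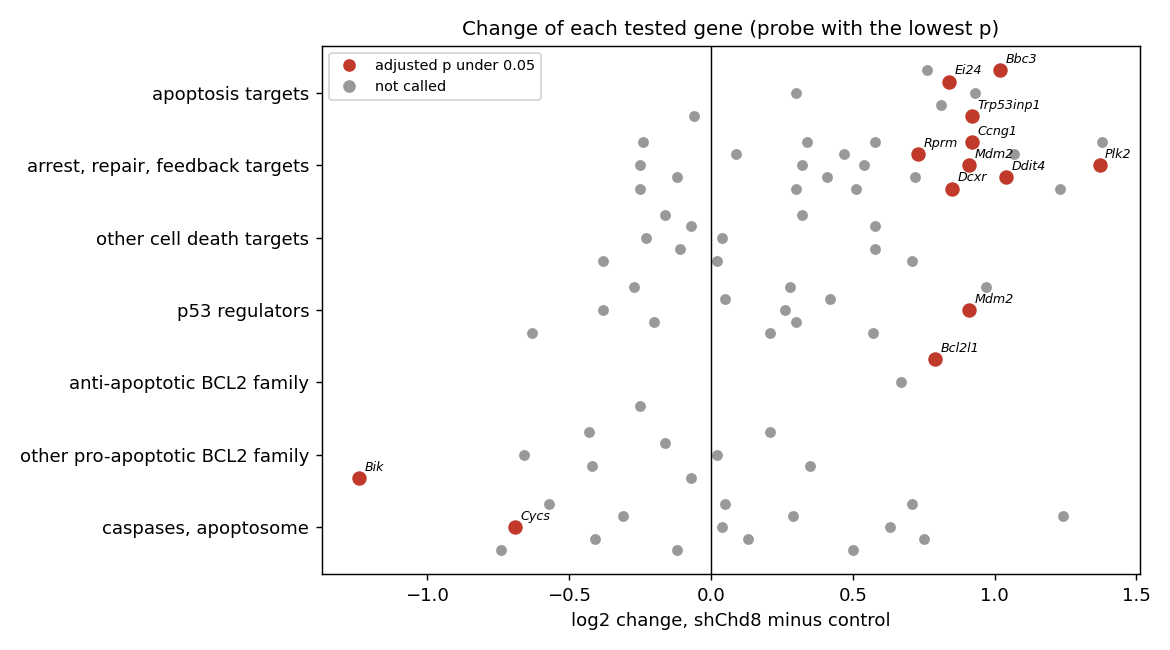
Log2 change, shChd8 minus control (x axis), of each tested gene in the p53 and apoptosis lists (rows), with 1 point per gene and called genes in red and named. Called genes of the p53 target lists lie between 0.73 and 1.37, and Bik at -1.24 and Cycs at -0.69 are the called falls.

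Markers of the feeder fibroblasts moved with these results. Of 31 markers with a probe, 20 were detected on all 6 arrays and 5 on none, namely Cnn1, Col5a2, Ddr2, Fap and Postn. The summed normalized intensity of the 31 markers was 44340, 29840 and 22500 in shChd8 cells and 20840, 17470 and 12030 in control cells, so every shChd8 array lay above every control array. Of 24 tested markers 23 had a log2 change above 0, and 14 had an unadjusted p under 0.05, all of them higher. Over all tested genes 48.6% were above 0, and 32.4% had an unadjusted p under 0.05 in either direction. Their median log2 change was 0.94, against 0.82 for the apoptosis targets. By limma 2 of the 24, Fbln2 and Tagln, rose, beside 2.12% of all tested genes. The number of these markers called higher was 12 under median scaling, 5 without background correction and 6 in the deposited normalized values. Over all 9711 tested genes it was 1165, 625 and 627 in those same settings. The median deviation per array was 0.91, 0.46 and 0.00 for the feeder markers in shChd8 cells and -0.13, -0.37 and -0.83 in control cells. For the apoptosis targets it was 0.42, 0.51 and 0.20 in shChd8 cells and -0.22, -0.36 and -0.50 in control cells. Stem cell markers had -0.16, -0.07 and 0.21 in shChd8 cells and 0.06, -0.05 and 0.11 in control cells. In bulk RNA more feeder cells and more RNA per cell cannot be told apart. Nor do these arrays show which cells the marker transcripts came from. The part of the feeders in the rise of Bbc3, Trp53inp1 and Ei24 was not tested.

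**Figure D5:**
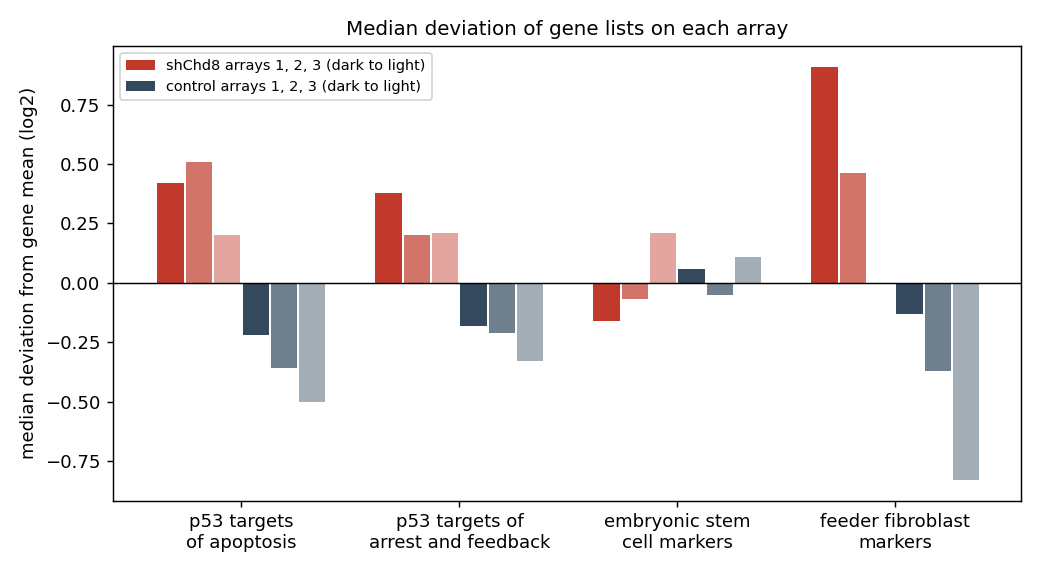
Median deviation of each gene list from its genes' means (y axis, log2) on each array, with shChd8 arrays in red and control arrays in dark shades. The apoptosis targets lie between 0.20 and 0.51 on shChd8 arrays and between -0.50 and -0.22 on control arrays, and the feeder markers spread from -0.83 to 0.91.

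Feeder markers did not all follow the same arrays within a group. Dcn, decorin, had 11.28, 11.41 and 9.59 in shChd8 cells and 9.79, 10.50 and 8.17 in control cells, with the same order of arrays within each group as Fas ILMN_2902979. Lox, lysyl oxidase, had 12.06, 11.28 and 10.04 in shChd8 cells and 10.34, 10.17 and 9.17 in control cells. Acta2, smooth muscle actin, had 13.28, 12.56 and 12.34 in shChd8 cells and 11.99, 11.56 and 11.15 in control cells. Lox and Acta2 were thus highest on the first array of each group and lowest on the third. This is the order of the feeder sum, of which both are a part, and not that of Fas ILMN_2902979. On Fas ILMN_2479290 the first array was the highest in shChd8 cells and the second in control cells. Dcn, Lox and Acta2 were picked after their values had been seen.

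Outside the set, the tested genes whose pattern over the 6 arrays was most like the median deviation of the 8 genes were Svop, Adamts12, Grb14, Arhgap12 and Efs, with Pearson r between 0.987 and 0.996. These correlations are a description, since the 6 arrays form 2 groups and any gene that differs between them correlates with the set.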

How the data were processed

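RNA of 6 samples was hybridised to Illumina bead arrays. The deposited table gives, per the file headers, a non-normalized linear intensity and a detection p-value for each probe on each array. The submitters' processing notes name GenomeStudio without a version. A deposited table of normalized intensity matched quantile normalization of these values without background subtraction. Here neqc of limma 3.58.1 in R 4.3.3 corrected the background from the detection p-values, added an offset of 16 and applied quantile normalization. Probes with a detection p-value under 0.01 on at least 3 arrays were fitted with lmFit and eBayes, shChd8 against control, two-sided, without covariates, and p-values were adjusted by Benjamini-Hochberg over all 16732 tested probes. A gene took the values of its lowest-p probe, and all probes of the set are reported. Of the 45281 probes, 34885 had 1 gene symbol, 18 several and 10378 none, and 34807 symbols were updated through RefSeq gene identifiers (GRCm38.p6). The annotation gives no probe build. The members and the lists were chosen with earlier results of these data known. Genes named outside the set are Chd8, the called genes of each list and up to 3 uncalled ones with the highest mean, and the 5 most alike in pattern. Cdkn1a, Phlda3, Ccng2, Cdkn2a, Hipk2, Kat5, Trp53bp1, Bak1, Bok, the single feeder markers and the markers named as detected or undetected were chosen after their values were seen. Alternatives changed the background correction, scaling, filter, variance model, probe rule and arrays. The number of arrays limits the precision.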

Additional observations from a re-analysis of the deposited data

How the results depend on the processing

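The number of genes of the set that were called was 3, and 0 by an unmoderated test of each probe (3 at an unadjusted p under 0.05), and it ranged from 0 to 3 when single arrays were left out. It was 4 under median scaling, with Aen added, and 2 on the mean of the tested probes. The median log2 change of 0.82 became 0.62 when no background correction was made or when the deposited normalized table was used, 0.64 on the mean of the tested probes and 1.03 under median scaling, where the median of all probes was 0.18 in place of -0.01, and it lay between 0.69 and 0.98 with single arrays left out. The count over all genes was 502. It was 815 with normexp without the detection p-values, 1323 without background correction, 1326 with the deposited normalized values, 1341 under median scaling (1165 higher and 176 lower, against 206 and 296), 1303 with a variance trend, 17 without moderation, 224 and 833 with detection on at least 1 and on all 6 arrays, 259 without a filter, and 15 to 679 with single arrays left out. Uncalled genes changed sign in 4 cases: Eda2r had 0.03 with normexp without the detection p-values, 0.01 under median scaling and 0.18 without shChd8 replicate 1 (-0.42 to 0.18 with single arrays left out), and Tnfrsf10b had -0.05 on its brightest probe. The cause of these differences was not tested, beyond the number of probes tested and arrays used. No paired analysis was made because the labels give no replicate numbers, and those used here follow sample order. Whether single shChd8 and control arrays were matched is not known. Perp was not detected, and Eda2r, Aen ILMN_2656453, Bik and the called probe of Cycs are dim, so that signal over background limits how well their changes were measured.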
